A study of Mus musculus with 4 samples.

Results

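Genes of plasminogen activation and of the serpin inhibitors were examined in mouse skeletal stem cells that had or lacked Mmp14, the gene of the membrane-anchored collagenase MT1-MMP. The group was 6 genes chosen by name: the activator genes Plat and Plau, the receptor gene Plaur, and the serpin genes Serpine2, Serpinf1 and Serping1. A probe set assigned to exactly 1 gene symbol was found for 5 of the 6, out of 22180 genes with such a probe set, and no probe set was listed under Serpine2, which is not analysed here. All 5 had mean signals above the minimum for testing in both genotypes, so none entered through 1 group only. In knockout, Plau, which encodes the urokinase-type activator, rose 1.80-fold and Serpinf1, which encodes PEDF, fell 1.39-fold. Plat and Plaur were not called, and Serping1, lower by 0.58 log2, narrowly missed the threshold.

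The data were 4 Affymetrix arrays, 2 from Mmp14+/+ (wild type) and 2 from Mmp14-/- (Mmp14 knockout) cells, with no other allele or agent named in the labels. Both groups came from mice aged 4 to 6 weeks and were kept in 3D collagen gel for 48 h before RNA was taken. The labels do not say how the cells were sorted, how the allele was made, whether animals were pooled, or whether replicates 1 and 2 are separate animals or cultures. P-values therefore measure only the spread between these arrays, which may be technical. Values are deposited log2 intensities, differences are knockout minus wild type in log2, and a gene was called when its limma p, adjusted by Benjamini and Hochberg over 12708 tested genes, was below 0.05.

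Plasminogen is a circulating zymogen that the serine proteases tPA (from Plat) and uPA (from Plau) cleave to plasmin, a protease of fibrin and of several matrix proteins that can also activate some pro-MMPs. The uPA receptor, uPAR (from Plaur), holds uPA at the cell surface, and serpins inhibit proteases by a trapping mechanism in which the cleaved serpin stays bound to its target. Not every member follows that scheme: PEDF is a serpin by fold that does not inhibit proteases and is known in bone for mutations that cause a form of osteogenesis imperfecta, and the C1 inhibitor (from Serping1) acts mainly on proteases of complement and the contact system. Protease nexin-1 (from Serpine2) inhibits thrombin, uPA and tPA. In connective tissue cells these genes act beside the MMPs in pericellular proteolysis.

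Of the 5 measured members, promoter sequences in the RefSeq table of GRCm38.p6 were found for 2, Plaur and Serpinf1. They are shown as the 250 bases before the listed start, on the strand of the gene. These 2 were printed because they had an entry, and not for their calls: Serpinf1 fell and Plaur was not called. Capitals mark matches, on either strand, to the 5 motifs searched, whose letters follow the sequences.
Plaur, chr7:24462233-24462482, plus strand: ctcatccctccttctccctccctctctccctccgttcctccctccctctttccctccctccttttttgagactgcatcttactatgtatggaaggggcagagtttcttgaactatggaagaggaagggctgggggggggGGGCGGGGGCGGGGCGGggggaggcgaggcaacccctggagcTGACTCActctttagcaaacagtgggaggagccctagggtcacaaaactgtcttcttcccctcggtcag
Serpinf1, chr11:75422624-75422873, minus strand: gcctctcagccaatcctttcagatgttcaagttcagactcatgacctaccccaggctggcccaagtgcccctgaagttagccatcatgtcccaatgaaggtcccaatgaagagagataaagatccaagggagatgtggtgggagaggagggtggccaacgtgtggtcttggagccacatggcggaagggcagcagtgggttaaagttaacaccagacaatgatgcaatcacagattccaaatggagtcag
The Plaur window held 1 AP-1 match, from 69 to 63 bases before the start, and 3 GC boxes between 111 and 95 bases before it, of which the last pair share 1 base. The Serpinf1 window held none of the 5 motifs. Among the 32851 promoter windows of the table, the AP-1 motif (TGANTCA) was found in 6.75% and the GC box (GGGCGG) in 32.7%. The TCF/LEF motif was searched as ATCAAAG and was found in 3.21% of windows. The ETS motif was searched as CCGGAAG and was found in 6.91% of windows. The TATA box was searched as TATAAA and was found in 12.4% of windows. GC content was 59.6% in the Plaur window and 51.6% in the Serpinf1 window.

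The targeted gene was checked first. Mmp14 read 8.77 and 8.83 log2 in wild type and 5.77 and 5.84 in knockout, a fall of 2.99 (limma adjusted p = 0.000278). Over the tested genes, arrays of 1 genotype correlated at 0.992 (wild type) and 0.994 (knockout), against 0.970 to 0.975 across genotypes. Array medians over the whole table of probe sets lay between 2.32 and 2.37 log2. The cell label was set against markers: all 16 measured skeletal stem and stromal markers passed the 2.34 log2 minimum. Of these, 7 were called higher and 1, Lepr, lower in knockout (50% called, against 11.3% of all tested genes). Passing cannot by itself identify the cells, since 12708 of 22180 genes passed, as did 8 of 9 pericyte and smooth muscle markers. Of the sex-linked genes, Xist was higher by 0.73 in knockout and the Y-linked Eif2s3y lower by 0.69, and the part of sex in the results below was not tested.

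Of the 5 members, 1 rose and 1 fell, against 11.3% of all tested genes called in either direction, 6.20% higher and 5.12% lower. The wild-type and knockout arrays did not overlap for 4 of the 5, and this held for 57.8% of all tested genes, so that lack of overlap was common. At an unadjusted limma p below 0.05, 3 of the 5 passed, as did 3500 of the 12708 tested genes. When the whole table of probe sets entered 1 limma fit, where 0.527% of probe sets were called, 0 of the 5 members were called. In that fit 3 members had an unadjusted p below 0.05, and the share of all probe sets under that p was not counted.

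**Figure D1:**
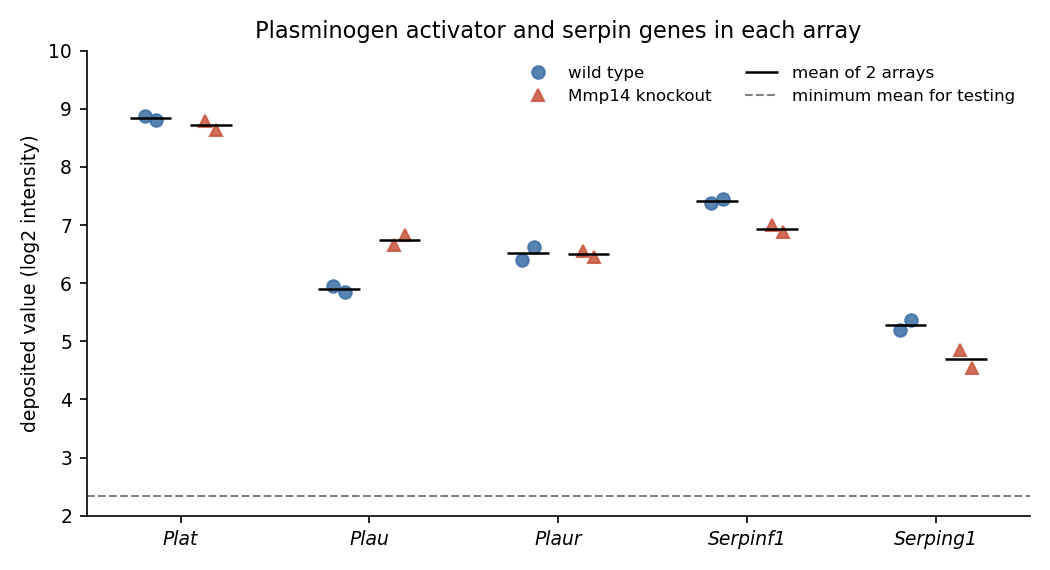
Deposited log2 intensity (vertical axis) of the 5 measured genes in each array, with wild-type arrays as circles, Mmp14 knockout arrays as triangles, group means as bars and the 2.34 log2 minimum for testing as a dashed line; levels of different genes come from different probe sets and are not comparable. Both knockout arrays lie above the wild-type arrays for Plau and below them for Serpinf1 and Serping1, while the groups overlap for Plaur.

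Among the activators, Plau carried the rise. Its signal was 5.95 and 5.85 log2 in wild type and 6.67 and 6.82 in knockout. Both knockout arrays were higher than both wild-type arrays, and the gap between the groups was several times the gap within either. The means were 5.90 ± 0.07 and 6.74 ± 0.11 log2 (SD, n = 2), a difference of 0.85 (SE 0.113, 95% interval 0.57 to 1.12, limma adjusted p = 0.00861). A change at least as large in either direction was found in 5.07% of tested genes. The call stood when any 1 array was left out (adjusted p = 0.0213 to 0.0363) and was lost when every probe set of the table, dim ones included, entered 1 fit (0.0868). In a bulk sample such as this, more or fewer cells of a type cannot be told apart from more or less RNA per cell.

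Plat, the gene of the tissue-type activator, did not follow Plau. It read 8.88 and 8.81 log2 in wild type and 8.80 and 8.64 in knockout. The knockout values were lower without overlap, but by less than the distance between the knockout arrays themselves. The difference was −0.12 (SE 0.112, limma adjusted p = 0.531), with a 95% interval from −0.40 to 0.15 that excludes a change as large as that of Plau.

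Plaur, the gene of the receptor that binds uPA, was measured at 6.41 and 6.62 log2 in wild type and at 6.55 and 6.45 in knockout. Both knockout arrays lay between the wild-type arrays, so the groups overlapped fully. The difference was −0.0092 (SE 0.120, limma adjusted p = 0.975), with a 95% interval from −0.30 to 0.28. The sign of this small value turned under quantile normalization and on leaving out either array numbered 2, so no direction is given.

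Because a ligand and its receptor were read in the same arrays, Plau was also expressed relative to the others within each array, which removes any shift of a whole array. Plau minus Plaur was −0.46 and −0.77 log2 in wild type and 0.11 and 0.37 in knockout, a change of 0.86. Plau minus Plat went from −2.93 and −2.96 to −2.13 and −1.81, a change of 0.97. Only the change of such a difference can be read, since the probe sets differ, and with 2 arrays against 2 the exact two-sided permutation test gives no p below 0.333, which it gave for both of these. These 2 and the differences of Plau from Serpinf1 (change 1.32) and from Serping1 (change 1.43) were the 4 computed.

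Of the serpins, Serpinf1 fell. Its signal was 7.388 and 7.447 log2 in wild type and 6.998 and 6.884 in knockout. The groups were separate, with both knockout arrays below both wild-type arrays. The means were 7.42 ± 0.04 and 6.94 ± 0.08 log2 (SD, n = 2), a difference of −0.48 (SE 0.106, 95% interval −0.74 to −0.22, limma adjusted p = 0.0412), and 14.4% of tested genes changed by at least that much. The call was close to the threshold: it did not survive the removal of any single array (adjusted p = 0.0793 to 0.187), without a filter on dim genes (0.0676), with the replicate number as a block (0.0797) and with every probe set in 1 fit (0.202), while the difference stayed between −0.53 and −0.42 in all of these.

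Serping1, the C1 inhibitor gene, read 5.20 and 5.36 log2 in wild type and 4.85 and 4.54 in knockout. The knockout arrays were again both below the wild-type arrays, and they stood further apart from each other than for any other member. The means were 5.28 ± 0.12 and 4.70 ± 0.22 log2 (SD, n = 2). The difference of −0.58 (SE 0.143, 95% interval −0.93 to −0.24) was larger than that of Serpinf1 but less precise, and it was not called (limma adjusted p = 0.0540). It was called under 3 other fits: with the stricter filter on dim genes (0.0134), with arrays centred on their medians (0.0402) and with trend and robust variance estimates (0.0303).

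**Figure D2:**
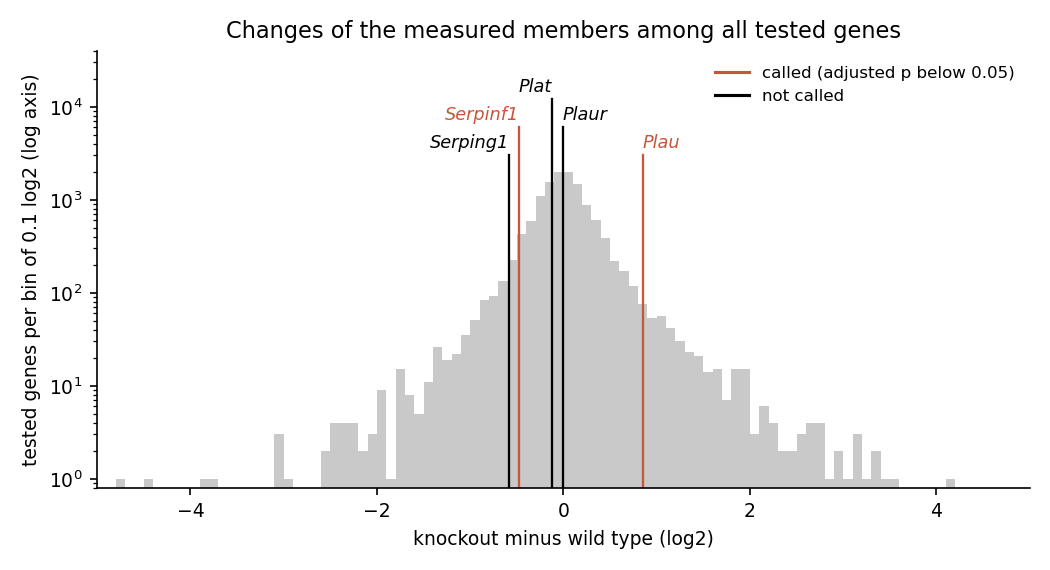
Number of tested genes (vertical log axis) in bins of 0.1 log2 of the knockout minus wild type difference (horizontal axis), with the 5 measured genes as vertical lines, red where called and black where not. Plau at 0.85 lies on the upper shoulder, Serpinf1 at −0.48 and Serping1 at −0.58 on the lower one, and Plat and Plaur near the centre.

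The patterns nearest to the 2 called members were sought among all other tested genes by the root mean square distance over the 4 arrays, after each gene was centred on its mean. Nearest to Plau were Enpp3, an ectonucleotidase gene (distance 0.026 log2, difference 0.82), and Apc2, a relative of the Apc tumour suppressor (0.027, difference 0.81). Nearest to Serpinf1 were Atp5g3, a subunit of the mitochondrial ATP synthase (0.0074, difference −0.47), and Ndufs8, a subunit of respiratory complex I (0.015, difference −0.51). With 4 arrays such closeness describes these arrays only.

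The substrate of both activators and their partners came next. Plg, the plasminogen gene itself, was dim in every array (1.82 and 1.94 log2 in wild type, 1.95 and 1.92 in knockout), below the 2.34 log2 minimum, and was not tested. Serpinb2, the gene of the activator inhibitor PAI-2, was also under the minimum by its mean and was not tested. Its values were 2.10 and 2.09 log2 in wild type and 2.43 and 2.46 in knockout.

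In the list of plasminogen system partners, 38 of 41 genes had a probe set and 24 were tested; 6 were called higher, 3 fell and 15 were not called (37.5% called, against 11.3% of all tested genes). The 6 include Mmp3, which passed the filter only through knockout. The median difference of the 24 was 0.28, against −0.0041 over all tested genes. The list was drawn up with earlier results of these data known, so the counts describe it and support nothing more.

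Receptors that clear protease and inhibitor complexes or bind activators differed in direction. Vldlr, the very low density lipoprotein receptor, which takes up protease and serpin complexes, fell from 4.98 and 4.72 log2 to 3.34 and 3.47, a difference of −1.44 (SE 0.130, limma adjusted p = 0.00245). Igf2r, the mannose 6-phosphate receptor, which can bind uPAR and plasminogen, rose from 7.73 and 7.65 to 8.43 and 8.33 (0.69, adjusted p = 0.0134) and lost its call if Mmp14 knockout replicate 1 was removed (0.0759). For both, all arrays of 1 genotype lay on the same side of the other. Lrp1, the related scavenger receptor that internalizes uPAR-bound complexes, had a difference of 0.41 and was not called (adjusted p = 0.133). Itgb3, the beta3 integrin chain of the vitronectin receptor, which cooperates with uPAR, rose from 4.87 and 4.97 to 6.29 and 6.22 (1.34, adjusted p = 0.00172), and its partner chain Itgav had 0.58 without a call (0.0527). The plasminogen-binding pair Anxa2 (0.06) and S100a10 (0.21) and the plasminogen receptor gene Plgrkt (0.06) were not called.

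Some substrates and coagulation partners had larger differences than any member. Hgf, the growth factor whose precursor uPA and related proteases can cleave, rose from 4.71 and 4.68 log2 to 6.76 and 6.46, a difference of 1.92 (SE 0.133, limma adjusted p = 0.00125), and its receptor gene Met had 0.68 without a call (0.0595). Pdgfc, whose product tPA activates, fell from 8.92 and 9.03 to 8.03 and 7.99 (−0.96, adjusted p = 0.00435). Hgf and Pdgfc thus went opposite ways, each with separate groups. F3, tissue factor, which starts coagulation, rose by 1.03 (adjusted p = 0.00352), and F2r, the thrombin receptor PAR1, by 0.78 (0.00912). Thbd, thrombomodulin, which turns thrombin to anticoagulant use, fell by 1.07 (adjusted p = 0.00418). With every probe set in 1 limma fit, Hgf kept its call (adjusted p = 0.0332). In that fit the calls of F3 (0.0538), Thbd (0.0603), Pdgfc (0.0610) and F2r (0.0879) were lost. Mmp3, whose pro-form plasmin can activate, read 1.93 and 2.18 log2 in wild type, under the minimum, and 3.60 and 3.10 in knockout. It entered the test only through its knockout signal, so its call carries no weight and no fold is given.

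**Figure D3:**
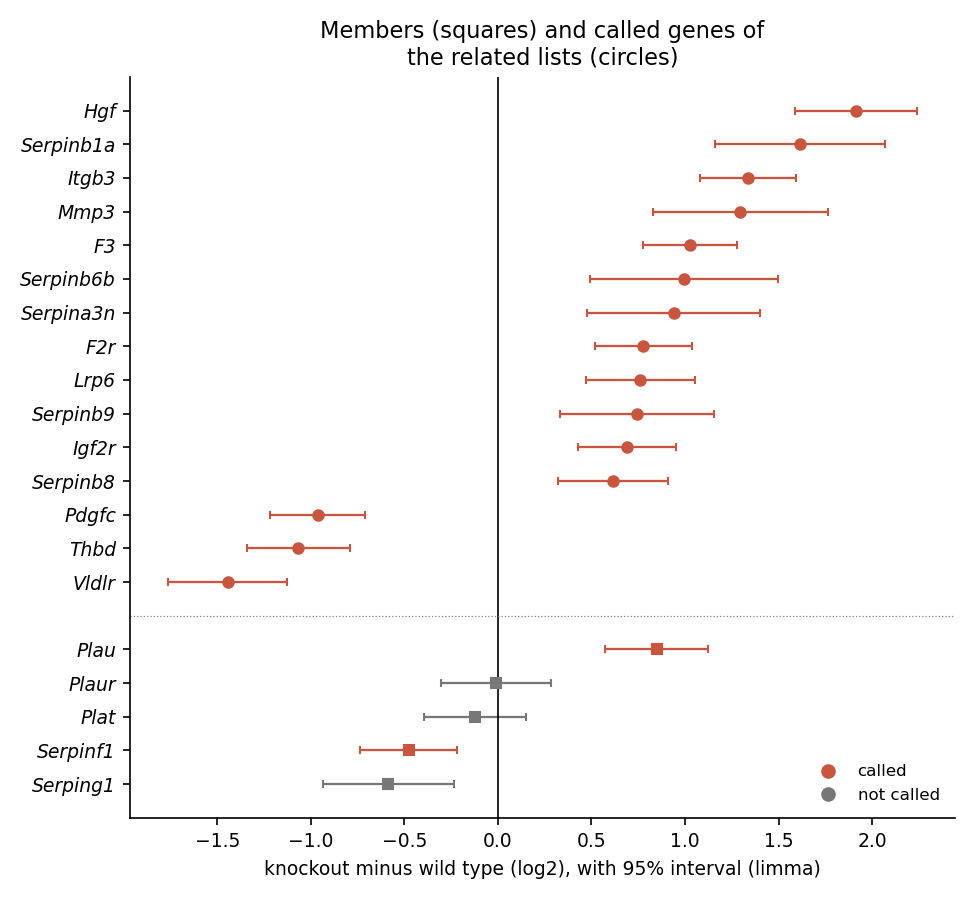
Knockout minus wild type difference in log2 (horizontal axis) with its 95% limma interval, for the 5 measured members (squares, below the dotted line) and the called genes of the related lists (circles, above it), in red where called and grey where not. The members lie between −0.58 and 0.85, while Hgf reaches 1.92 and Vldlr −1.44; the wild-type signal of Mmp3 was under the minimum.

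Other serpin genes rose where they were called. Of 38 genes in that list, 31 had a probe set, 22 of these were dim and 9 were tested. By limma at an adjusted p below 0.05, 5 rose, 0 fell and 4 were not called, and 6.20% of all tested genes were called higher. At an unadjusted limma p below 0.05 in either direction, 7 of the 9 passed, as did 3500 of the 12708 tested genes. The median difference of the 9 was 0.74. Serpinb1a, an intracellular inhibitor of neutrophil-type serine proteases, rose from 6.22 and 5.73 log2 to 7.70 and 7.47, a difference of 1.62 (SE 0.186, limma adjusted p = 0.00528). Serpina3n, a secreted inhibitor related to antichymotrypsin, rose by 0.94 (adjusted p = 0.0305), as did Serpinb6b by 0.99 (0.0337), Serpinb8 by 0.61 (0.0280) and Serpinb9, an inhibitor of granzyme B, by 0.74 (0.0439). Serpinb1a kept its call when any 1 array was left out, with differences from 1.37 to 1.86. With every probe set in 1 limma fit its call was lost (adjusted p = 0.0710), and 0 genes of this list were called.

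Each of the other 4 calls was lost on removing at least 1 array, while its difference stayed above 0. That of Serpina3n was 0.93 and 0.94 when Mmp14 knockout replicates 1 and 2 were removed in turn, against 0.94 with all arrays. It depended more on the wild-type arrays, at 1.22 without wild type replicate 1 and 0.66 without wild type replicate 2. The count of serpin genes that rose was 2 when wild type replicate 2 was removed and 5 when wild type replicate 1 was. It was 2 and 3 when Mmp14 knockout replicates 1 and 2 were removed in turn, and 4 with the replicate number as a block. The block ended the calls of Serpinb6b (adjusted p = 0.0680) and Serpinb8 (0.0522), and the count of 4 includes Serpind1, which was not called in the fit reported here. Likewise, the 5 without wild type replicate 1 include Serpind1 and leave out Serpinb8 (0.0746). Serpinb1a, Serpinb6b and Serpinb9 lie in a run of 5 protein-coding genes in RefSeq, all of clade B, in which Serpinb9b (0.32) was tested and not called. Whether probe sets of these related genes share signal was not tested. Serpinh1, the collagen chaperone HSP47, had −0.28 and was not called (adjusted p = 0.159).

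The genes around the C1 inhibitor and PEDF were read next. Of 26 complement and contact system genes, 21 had a probe set and 7 were tested, of which limma called 0, with 1 at an unadjusted p below 0.05, C4b (0.82, adjusted p = 0.0764); 11.3% of all tested genes were called. C1ra, the gene of a protease that the C1 inhibitor blocks, had −0.06 (adjusted p = 0.833). The other target gene C1s1 was dim by its mean, at 1.80 and 1.60 log2 in wild type and 2.96 and 2.27 in knockout, and the contact factor genes F11, F12 and Kng1 were dim too. Of the 8 tested partners of PEDF and protease nexin-1, 2 rose (25.0% called, against 11.3% of all tested genes in either direction and 6.20% higher), the Wnt co-receptor gene Lrp6 (0.76, adjusted p = 0.0140) and F2r. A second, dimmer Lrp6 probe set gave 0.35. In the limma fit of every probe set, neither the brighter (adjusted p = 0.111) nor the dimmer one (0.437) was called. The call of Lrp6, which rests on the brighter probe set, was lost on removing wild type replicate 2 (difference 0.69) or knockout replicate 1 (0.67). Pnpla2, a lipase reported as a PEDF receptor, had −0.37 and was not called (adjusted p = 0.0707).

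Plau, Plaur and several serpins are also known from leukocytes, and Plat from endothelium, so markers of other cells were read beside them. Of 12 macrophage and leukocyte markers, 8 were below the minimum, including Ptprc and Adgre1, and the linear signal summed over the list was 78.4 to 85.5 in wild type and 70.2 to 77.7 in knockout, with none of its 4 tested markers called and 1 at an unadjusted p below 0.05. Of 10 endothelial markers, 9 were below it, including Pecam1 and Cdh5, with sums of 36.3 to 39.5 and 37.7 to 39.7. All 7 lymphocyte markers with a probe set, 7 of 8 granulocyte markers, 3 of 5 erythroid and megakaryocyte markers and 5 of 7 osteoclast markers were below it. The sum of the osteoclast list was 72.4 to 82.6 in wild type and 61.1 to 66.8 in knockout. Acp5, at 5.378 and 5.690 log2 in wild type and 4.947 and 5.004 in knockout, made up most of that difference and was not called (limma adjusted p = 0.0528). The means of Ctsk, Atp6v0d2, Dcstamp and Calcr were higher in knockout and those of Oscar and Ocstamp lower. Of these, only Ctsk was above the minimum, and it was not called. Of 9 pericyte and smooth muscle markers, 8 were tested, and Rgs5 (−1.07) and Cnn1 (−0.73) fell. Acta2 (−0.14), Tagln (−0.20), Notch3 (−0.20) and Des (−0.14) had lower means in knockout without a call. Cspg4 (0.29) and Myh11 (0.11) had higher ones, also without a call. The sum of this list was 4836 to 4924 in wild type and 4033 to 4243 in knockout. Of 8 skeletal muscle markers, 4 were below the minimum, and Pax7 rose (1.31, limma adjusted p = 0.00221). Acta1 (0.34, limma adjusted p = 0.221) and Ckm (0.19) had higher means in knockout without a call, and Des (−0.14) a lower one. Below the minimum, the means of Myod1 and Myh3 were higher in knockout and those of Myf5 and Myog lower. The sums of the list were 84.3 to 91.8 in wild type and 108 to 121 in knockout. The sums of the Schwann and neural list, with 2 of 6 markers below the minimum, were 42.5 to 53.4 and 59.4 to 75.7. S100b, at 4.55 and 3.93 log2 in wild type and 4.98 and 5.54 in knockout, made up most of that list's difference and was not called (limma adjusted p = 0.0604). Mbp (0.45, limma adjusted p = 0.0501) and Ngfr (0.06) also had higher means in knockout without a call, while Sox10, Gfap and Tubb3 had lower ones. The part of these shifts in the differences of Plau, Serpinf1 and the related genes was not tested.

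**Figure D4:**
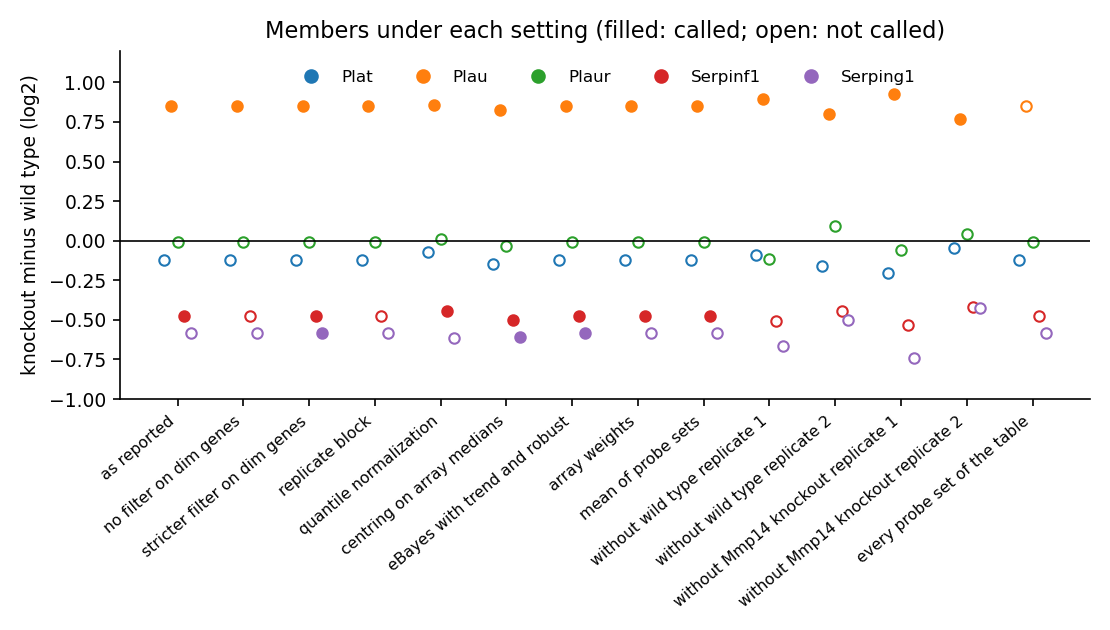
Knockout minus wild type difference in log2 (vertical axis) of the 5 measured genes under each fit (horizontal axis), filled where called at an adjusted p below 0.05 and open where not. Plau lies between 0.77 and 0.93 and is open only with every probe set in 1 fit; Serpinf1 and Serping1 stay below 0 throughout and change between filled and open, and Plaur crosses 0.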

How the data were processed

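The authors deposited log2 intensities of 41345 probe sets in each array, running from 0.43 to 12.2. Per the submitters' processing notes, limma and oligo were used; versions and the normalization are not given in the sources used here. Per the labels' protocols, 10 ng of RNA was amplified, and 3.75 µg of the cDNA received the biotin label.

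Probe sets with exactly 1 symbol in the platform annotation (23521, against 1814 with several and 16010 with none listed) were used, and a gene was represented by its brightest one by mean. Entrez identifiers of 23328 were found in RefSeq of GRCm38.p6 and no symbol changed. Genes whose mean reached 2.34 log2 (the median of all row means) were tested with limma 3.58.1 under R 4.3.3 (two-sided moderated test from lmFit and eBayes, 2 residual degrees of freedom, prior of 3.99 degrees of freedom and SD 0.12). The fit was tested on simulated data. The number of arrays limits the precision.

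The members and lists were chosen with earlier results of these data known. Named genes were Mmp14, the members, Plg, up to 8 called genes of each list with the largest changes, and the nearest patterns; others are given as examples chosen after their values were seen. Alternatives covered filters, scaling, variance settings, array weights, probe set averaging, thresholds, the replicate block and leaving out each array.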

Additional observations from a re-analysis of the deposited data

How the results depend on the processing

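The number of genes called among all tested, 1439 as reported, was 687 to 1131 on leaving out 1 array, 218 when the whole table of probe sets entered 1 fit, 459 at an adjusted p below 0.01, 2365 below 0.1, and 446 with at least a 2-fold change as well. Of the members, 2 were called as reported, 1 without a filter on dim genes, 1 at an adjusted p below 0.01 and 1 on leaving out any array (1 to 1), Plau each time. With every probe set in 1 limma fit 0 were called, with 3 at an unadjusted p below 0.05, a share not counted over all probe sets. With at least a 2-fold change 0 were called. Of the genes of the 4 lists, 15 were called as reported, 8 below 0.01 and 7 with at least a 2-fold change. With every probe set in 1 fit 3 were called, Hgf, Itgb3 and Vldlr. The replicate number as a block called 1 member (Plau), 1057 genes of all tested and 15 list genes; same-numbered arrays deviated from their group means with a correlation of −0.04, so the numbers were not taken as pairs. The difference of Plaur turned to 0.012 under quantile normalization, and ran from −0.11 to 0.10 on leaving out 1 array. Where a call was lost the cause was not tested, except that a fit without 1 array has 1 residual degree of freedom and assumes that the lone array varies like the other group, and the fit of every probe set adjusts over more tests. Without the filter on dim genes, Plg had a difference of 0.06 (limma adjusted p = 0.868) and Serpinb2 one of 0.35 (0.132).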
